A study of Homo sapiens with 6 samples.

Results

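Glucose breakdown and the response to low oxygen share many genes, and 39 of them are described here: glucose transporters, the enzymes that turn glucose into pyruvate and lactate, the enzymes that set fructose-2,6-bisphosphate, kinases that hold pyruvate back from oxidation in mitochondria, genes known to rise in hypoxia, and the oxygen sensors that control HIF1A. They were chosen by symbol in the annotation of the array platform. Of the 39, 36 had a probe set assigned to that symbol alone, and all 36 were among the 12935 genes tested, of 19775 genes with such a probe set. CA9, SLC16A1 and SLC16A3 were not analysed here. The 36 genes had 85 probe sets, of which 74 passed the filter on low signal, and each gene is described by its passing probe set of highest mean.

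RNA came from SAS, a human cell line established from a squamous cell carcinoma of the mouth. One array was made from siCYLD cells with an ALK5 inhibitor, 2 arrays from siCYLD cells without it, 1 array from siCtrl cells with the inhibitor and 2 arrays from siCtrl cells without it. ALK5 is the type I receptor of TGF-β, and CYLD is a deubiquitinase that restrains NF-κB signalling. Every group was transfected with an siRNA, grown for 2 days and then kept for 48 h without serum, and the cells called untreated below received DMSO in place of the inhibitor. The labels name no low-oxygen exposure, no second CYLD siRNA, no rescue and no dose or name of the inhibitor. They also do not say whether duplicate arrays were separate cultures, so the p-values reflect the spread among these arrays alone, and that spread may be technical.

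The labels of 2 arrays contradict each other. Replicate 1 of siCYLD is titled as such but has the control siRNA in its source name, and replicate 2 of siCtrl has the CYLD siRNA in its source name. Arrays were grouped by title here. By title the untreated siCYLD arrays correlated at 0.988 across genes and the untreated siCtrl arrays at 0.9867. Untreated arrays of unlike title correlated at 0.9636 to 0.9661, so each disputed array lay closest to the duplicate of its title. The brightest CYLD probe set read 176 in siCYLD cells with inhibitor and 278 and 230 in untreated siCYLD cells, against 349 in siCtrl cells with inhibitor and 411 and 500 in untreated siCtrl cells. Its log2 difference between untreated siCYLD and siCtrl cells was -0.80 ± 0.18 (SE, 2 arrays each; limma adjusted p = 0.0065), and -0.66 without siCtrl replicate 2 (adjusted p = 0.0584). In each of the 4 CYLD probe sets that passed the filter the signal was lower in siCYLD cells, with 19.6% to 58.6% left. All 9 epithelial and squamous marker genes measured passed the filter. Their summed signal was 83223 in siCYLD cells with inhibitor and 91908 and 92977 in untreated siCYLD cells, against 95857 in siCtrl cells with inhibitor and 83474 and 82666 in untreated siCtrl cells. Single markers moved within that sum. KRT5, a basal keratin, read 5595 in siCYLD cells with inhibitor and 900 and 968 in untreated siCYLD cells, against 12525 in siCtrl cells with inhibitor and 1094 and 1245 in untreated siCtrl cells, an inhibitor difference of 2.98 (adjusted p = 5.28e-06) with an interaction of -0.84 (adjusted p = 0.0463). The desmosome gene DSP was higher with the CYLD siRNA (0.66, adjusted p = 7.77e-05) and had an interaction of -0.80 (adjusted p = 0.0105). JUP was higher with the siRNA (0.28, adjusted p = 0.0263) and lower with the inhibitor (-0.36, adjusted p = 0.0145), and DSG3 was lower with the siRNA (-0.64, adjusted p = 0.00224). Their part in the results below was not tested. Fibroblast markers passed for 4 of 8 genes and summed to between 760 and 920, and leukocyte markers passed for 2 of 5 and summed to between 215 and 291.

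In glycolysis, hexokinase traps glucose in the cell, phosphofructokinase commits it to breakdown, and lactate dehydrogenase disposes of the resulting pyruvate while restoring the cofactor that the pathway consumes. Fructose-2,6-bisphosphate, made and broken down by the PFKFB enzymes, is the strongest known activator of phosphofructokinase. When oxygen falls, the EGLN enzymes can no longer mark HIF1A for destruction, and the stabilised factor binds a short core sequence, ACGTG or GCGTG, near many glycolytic genes. Many carcinoma cells are known for a high rate of glycolysis also when oxygen is present.

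Values are signals on the linear scale of the MAS5 software, and differences are of log2(signal + 16.06). A difference was called at an adjusted p below 0.05. Inhibitor values within 1 siRNA rest on 1 inhibitor array, so their p-values reflect the spread of the untreated duplicates and not that of inhibitor-treated samples. In untreated cells, 7 of the 36 genes were called with the CYLD siRNA, 2 higher and 5 lower. That is 19.4%, against 21.3% of all genes tested (9.49% higher and 11.8% lower), so the group as a whole was called no more often than the array as a whole. Their median log2 difference was -0.06, beside -0.04 over all genes. Across both siRNAs the inhibitor was called for 11 of the 36 genes, 7 higher and 4 lower, which is 30.6% against 20% of all genes (11.2% higher and 8.82% lower), with a median of 0.13 beside 0.01. The inhibitor difference itself was called as unequal between the siRNAs, the interaction, for 2 of the 36 genes, 5.56% against 1.67% of all genes. The 7 knockdown calls kept their sign between the 2 arrays of undisputed labels, siCYLD replicate 2 and siCtrl replicate 1. The 11 inhibitor calls kept their sign without both arrays of conflicting labels, where PFKM (0.45, adjusted p = 0.0865), BNIP3L (-0.54, adjusted p = 0.0666) and ERO1A (0.36, adjusted p = 0.204) no longer passed. Both genes with a called interaction were PFKFB genes with a negative value, and 0.688% of all genes were called with a negative value. Signals of untreated siCYLD and siCtrl arrays did not overlap for 20 of the 36 genes, 7 higher and 13 lower, which is 55.6% against 60.9% of all genes (26.8% higher and 34.1% lower). With the inhibitor arrays included, 7 of the 36 did not overlap between the siRNAs (19.4% against 27.9% of all genes, with 12.6% higher and 15.3% lower). Inhibitor and untreated arrays did not overlap for 14 of the 36 genes, 38.9% against 30.1% of all genes (15.7% higher and 14.4% lower), so a lack of overlap noted for a gene below is common on these arrays.

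**Figure D1:**
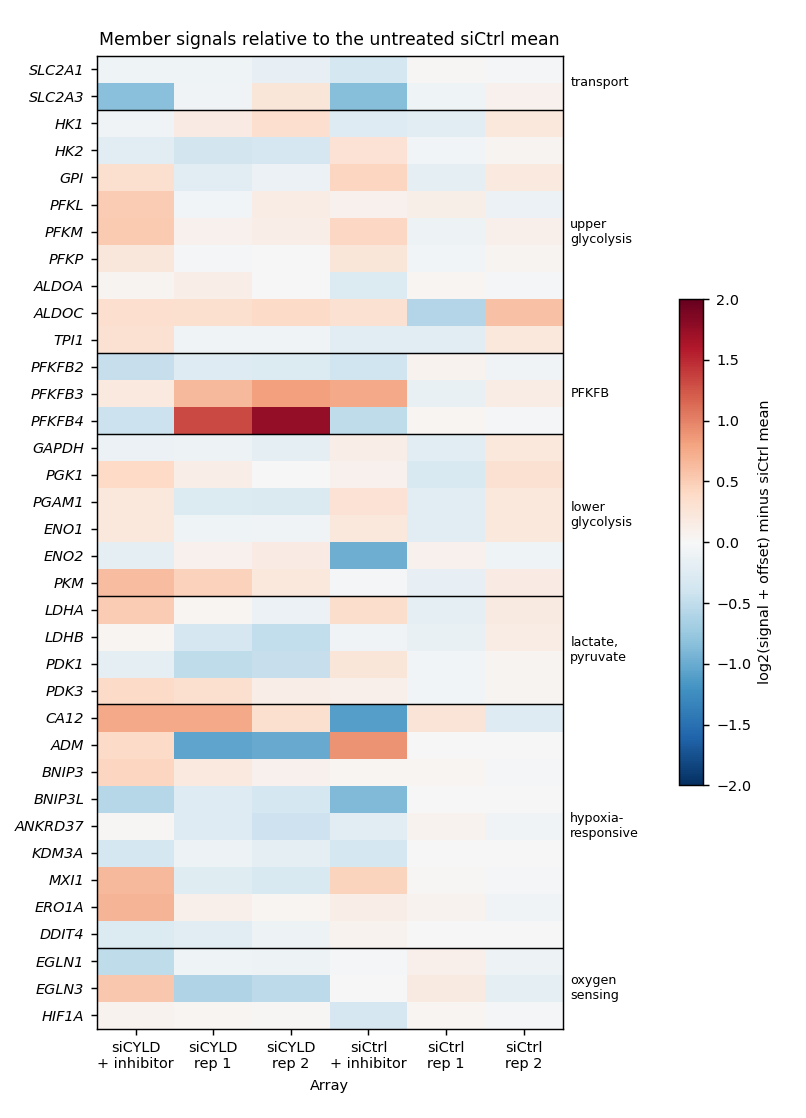
Signals of the 36 measured genes on the 6 arrays, as log2(signal + 16.06) minus the mean of both untreated siCtrl arrays, with red for higher and blue for lower values and with genes in rows grouped by role. PFKFB4 is highest on both untreated siCYLD arrays, and the ADM signal is lowest on the same 2 arrays.

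**Figure D2:**
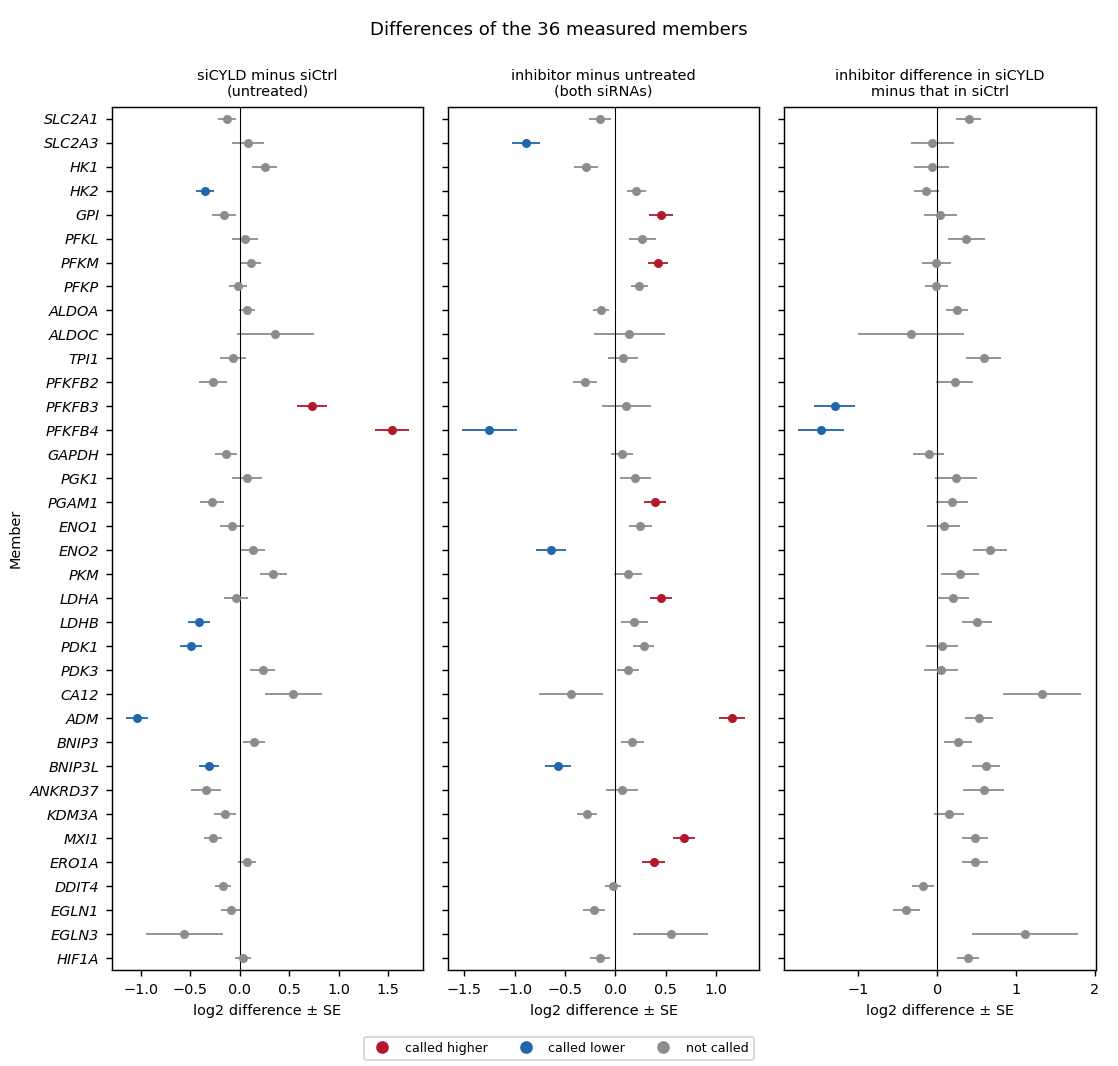
Log2 differences with their standard errors for the 36 measured genes, with siCYLD minus siCtrl in untreated cells on the left, inhibitor minus untreated across both siRNAs in the middle, and the inhibitor difference in siCYLD cells minus that in siCtrl cells on the right. Coloured points passed an adjusted p of 0.05 (7, 11 and 2 genes), and the 2 in the right panel are PFKFB3 and PFKFB4.

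The PFKFB enzymes held the largest knockdown difference among the 36 genes. PFKFB4, which both makes and breaks down fructose-2,6-bisphosphate and is induced by hypoxia, read 255 in siCYLD cells with inhibitor and 902 and 1228 in untreated siCYLD cells, against 241 in siCtrl cells with inhibitor and 361 and 340 in untreated siCtrl cells. Both untreated siCYLD arrays stood above the other 4, and the 2 inhibitor arrays were the lowest and lay close together. In untreated cells PFKFB4 rose with the CYLD siRNA by 1.54 ± 0.17 (log2, SE; adjusted p = 2.4e-05). The arrays with undisputed labels differed by 1.72. Under the inhibitor the siCYLD array was higher than the siCtrl array by 0.07, with 1 array each and no test of that pair. The inhibitor difference reached -1.98 in siCYLD cells (adjusted p = 1.7e-05) and was -0.51 in siCtrl cells (adjusted p = 0.135), and the difference between them was -1.47 ± 0.29 (limma adjusted p = 0.0218). Across both siRNAs PFKFB4 fell by 1.25 ± 0.27 (adjusted p = 0.00939), a call that was lost without the siCYLD inhibitor array, where the value is the one for siCtrl cells alone. An additive fit without both arrays of conflicting labels gave a siCYLD minus siCtrl difference of 0.90, and the call was lost. That fit averages the untreated pair (1.72) and the inhibitor pair (0.07), so it is not a value for untreated cells.

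PFKFB3, the family member with the highest kinase activity, read 506 in siCYLD cells with inhibitor and 700 and 787 in untreated siCYLD cells, against 755 in siCtrl cells with inhibitor and 397 and 487 in untreated siCtrl cells. Its untreated siCYLD arrays both stood above its untreated siCtrl arrays, while under the inhibitor the order was turned round. The knockdown difference in untreated cells was 0.73 ± 0.15 (adjusted p = 0.00313), with 0.96 for the arrays of undisputed labels, and the inhibitor pair differed by -0.56. PFKFB3 fell with the inhibitor in siCYLD cells, by 0.54 (adjusted p = 0.0493), and rose in siCtrl cells, by 0.76 (adjusted p = 0.019). The difference between those inhibitor differences was -1.30 ± 0.26 (adjusted p = 0.0217), and the inhibitor value across both siRNAs was 0.11 ± 0.24 (adjusted p = 0.786). Fitted additively without both arrays of conflicting labels, the siCYLD minus siCtrl difference was 0.20, and the call was lost. This value averages the untreated pair (0.96) and the inhibitor pair (-0.56), which had opposite signs. With the 2 arrays of undisputed untreated labels the interaction values were -1.65 for PFKFB4 and -1.52 for PFKFB3, with no test. Each interaction uses 1 inhibitor array per siRNA, whose spread was taken to be that of the duplicates. Without the intensity trend neither interaction passed (adjusted p = 0.244 for PFKFB4 and 0.228 for PFKFB3), nor did either with no filter (0.179 and 0.156), and with the mean of its kept probe sets PFKFB4 had an adjusted p of 0.0504 for the interaction. Without the trend the PFKFB3 knockdown call (adjusted p = 0.0519) and the PFKFB4 inhibitor call (adjusted p = 0.0743) were lost as well.

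PFKFB2, the form best known from heart, did not pass in any of the 3 comparisons. It read 491 in siCYLD cells with inhibitor and 566 and 559 in untreated siCYLD cells, against 511 in siCtrl cells with inhibitor and 713 and 651 in untreated siCtrl cells. Its knockdown difference was -0.27 (95% interval -0.56 to 0.02; adjusted p = 0.179) and its inhibitor difference -0.30 (-0.57 to -0.02; adjusted p = 0.117).

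**Figure D3:**
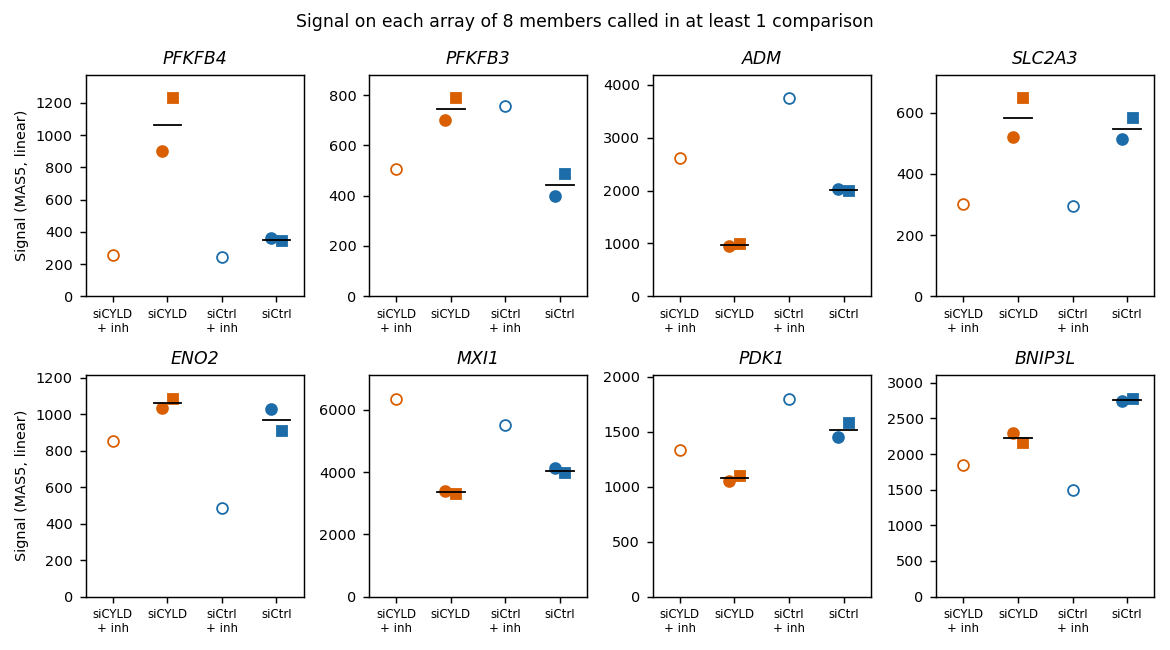
Linear MAS5 signal on each array for 8 genes called in at least 1 comparison, with siCYLD in orange and siCtrl in blue, open symbols for the inhibitor (inh), circles for replicate 1, squares for replicate 2 and a bar at the mean of each untreated pair. PFKFB4 reads 902 and 1228 on the untreated siCYLD arrays and between 241 and 361 on the other 4.

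The DNA just before the transcription start of PFKFB4, PFKFB3, ADM and ENO2 is shown as an example of the core sequences to which HIF1A is known to bind. These genes are not a ranking by size of change. The PFKFB4 and ADM stretches hold GCGTG but 0 ACGTG, as does a further annotated PFKFB3 promoter that is not shown. Each line gives the 250 bases before the start, 5′ to 3′ on the strand of the gene, from RefSeq promoters on GRCh38.p14, and capitals mark ACGTG or GCGTG read on either strand. The PFKFB4 stretch is chr3:48556804-48557053 on the minus strand, the PFKFB3 stretch is one of its annotated promoters, chr10:6202682-6202931 on the plus strand, the ADM stretch is chr11:10304823-10305072 on the plus strand, and the ENO2 stretch is chr12:6914330-6914579 on the plus strand.
PFKFB4: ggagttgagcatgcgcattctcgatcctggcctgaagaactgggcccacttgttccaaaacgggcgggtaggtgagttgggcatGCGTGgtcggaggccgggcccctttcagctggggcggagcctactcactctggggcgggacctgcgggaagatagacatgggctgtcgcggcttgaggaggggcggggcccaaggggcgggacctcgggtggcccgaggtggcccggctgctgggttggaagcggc
PFKFB3: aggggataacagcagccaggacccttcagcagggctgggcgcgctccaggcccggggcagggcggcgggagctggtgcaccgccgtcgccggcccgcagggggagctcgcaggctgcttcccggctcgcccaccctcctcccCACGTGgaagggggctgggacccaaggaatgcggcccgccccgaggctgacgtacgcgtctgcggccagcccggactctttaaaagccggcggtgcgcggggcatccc
ADM: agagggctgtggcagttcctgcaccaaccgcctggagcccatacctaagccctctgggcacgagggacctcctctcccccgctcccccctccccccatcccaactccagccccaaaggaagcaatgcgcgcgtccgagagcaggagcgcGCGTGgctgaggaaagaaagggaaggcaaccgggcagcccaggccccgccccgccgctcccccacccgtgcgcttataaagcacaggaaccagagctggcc
ENO2: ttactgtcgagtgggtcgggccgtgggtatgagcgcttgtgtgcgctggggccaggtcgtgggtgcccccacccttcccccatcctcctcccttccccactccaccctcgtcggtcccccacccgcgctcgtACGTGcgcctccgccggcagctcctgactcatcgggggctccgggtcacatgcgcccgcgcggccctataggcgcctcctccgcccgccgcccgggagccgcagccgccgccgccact
Promoters were matched by symbol for 33 of the 36 genes, and SLC2A3, PFKFB2 and BNIP3L were not among them. ACGTG, on either strand, lay within 250 bases before a start in 20 of the 33 (60.6%), beside 28.4% of 10447 genes tested that had a promoter in the table. Counted by promoter, since a gene can have several, it lay in 23 of 59 promoters of these genes and in 6501 of 35116 promoters of all genes (18.5%). GCGTG lay in 60.6% of the 33 genes and 52.2% of the genes tested. GTCTAGAC, a palindrome to which SMAD proteins bind, lay in 0 of the 33 and in 0.144% of the genes tested. These matches describe letters in a window and were not tested, and the 33 genes include ones chosen as HIF1A targets.

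Of the glucose transporters, SLC2A3, a high-affinity carrier, was lower with the inhibitor under either siRNA. It read 300 in siCYLD cells with inhibitor and 521 and 647 in untreated siCYLD cells, against 295 in siCtrl cells with inhibitor and 515 and 581 in untreated siCtrl cells. Both inhibitor arrays lay below all 4 untreated ones, and the untreated siRNA groups overlapped. SLC2A3 fell with the inhibitor by 0.89 ± 0.14 (log2, SE; adjusted p = 0.00204), and by 0.91 in siCYLD cells and 0.86 in siCtrl cells, a difference of -0.06 between the siRNAs (adjusted p = 0.948). This call held in 13 of 13 other settings. The knockdown difference was 0.08 (adjusted p = 0.748). Both other SLC2A3 probe sets were lower too, by log2 values of -0.85 and -0.68. SLC2A1, the common basal glucose carrier, read 4007 in siCYLD cells with inhibitor and 3979 and 3786 in untreated siCYLD cells, against 3315 in siCtrl cells with inhibitor and 4318 and 4160 in untreated siCtrl cells. It did not pass in any comparison, with a knockdown difference of -0.13 (95% interval -0.33 to 0.08; adjusted p = 0.378) and an inhibitor difference of -0.15 (-0.39 to 0.08; adjusted p = 0.343).

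Among the 9 enzymes from hexokinase to triose phosphate isomerase, 1 was lower with the CYLD siRNA and 2 were higher with the inhibitor. Over all genes 11.8% were lower with the siRNA and 11.2% higher with the inhibitor. HK2, the hexokinase bound to mitochondria that many tumours express, read 4187 in siCYLD cells with inhibitor and 3730 and 3838 in untreated siCYLD cells, against 5876 in siCtrl cells with inhibitor and 4656 and 5003 in untreated siCtrl cells. Each siCYLD array lay below each siCtrl array. HK2 fell by 0.35 ± 0.09 (adjusted p = 0.0178) in untreated cells, and the arrays of undisputed labels differed by -0.28. Its 2 other probe sets went the opposite way, with log2 values of 0.91 (adjusted p = 0.00421) and 0.82 (adjusted p = 0.0145), so no single direction can be given for the gene. The call was also lost without siCYLD replicate 1 (-0.33, adjusted p = 0.0835) and without siCtrl replicate 2 (-0.30, adjusted p = 0.0742).

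GPI, which converts glucose-6-phosphate to fructose-6-phosphate, read 4741 in siCYLD cells with inhibitor and 3302 and 3530 in untreated siCYLD cells, against 5136 in siCtrl cells with inhibitor and 3321 and 4371 in untreated siCtrl cells. It rose with the inhibitor by 0.45 ± 0.12 (adjusted p = 0.0201), and both inhibitor arrays lay above the untreated ones. PFKM, a phosphofructokinase subunit, read 3680 in siCYLD cells with inhibitor and 2716 and 2804 in untreated siCYLD cells, against 3426 in siCtrl cells with inhibitor and 2390 and 2733 in untreated siCtrl cells. It rose by 0.42 ± 0.10 (adjusted p = 0.0138), again with no overlap. PFKP, another phosphofructokinase gene, had an inhibitor difference of 0.24 (adjusted p = 0.0635), and PFKL had 0.27 (adjusted p = 0.181). ALDOA, an aldolase, was uncalled in each comparison. It read 24022 in siCYLD cells with inhibitor and 25466 and 23150 in untreated siCYLD cells, against 19212 in siCtrl cells with inhibitor and 23676 and 22577 in untreated siCtrl cells. Its knockdown difference was 0.07 (95% interval -0.10 to 0.24) and its inhibitor difference -0.14 (-0.33 to 0.05). The other upper enzymes, HK1, ALDOC and TPI1, were uncalled, with knockdown differences of 0.25, 0.36 and -0.07 and inhibitor differences of -0.29, 0.14 and 0.08. The GPI call was lost without siCYLD replicate 1 (0.43, adjusted p = 0.066), siCtrl replicate 1 (0.37, adjusted p = 0.0515) or the siCYLD inhibitor array (0.43, adjusted p = 0.0944). The PFKM call was lost without siCYLD replicate 1 (0.41, adjusted p = 0.0534) or the siCYLD inhibitor array (0.42, adjusted p = 0.0578).

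Of the 6 enzymes from GAPDH to pyruvate kinase, 0 were called with the CYLD siRNA at the adjusted threshold in limma. At an unadjusted p below 0.05 there were 2 of 6, beside 34.2% of all genes. With the inhibitor PGAM1 rose and ENO2 fell. PGAM1, a phosphoglycerate mutase, read 9499 in siCYLD cells with inhibitor and 6812 and 6736 in untreated siCYLD cells, against 10090 in siCtrl cells with inhibitor and 7107 and 9489 in untreated siCtrl cells. The lower inhibitor array stood barely above siCtrl replicate 2, the highest untreated array. Its inhibitor difference was 0.39 ± 0.11 (adjusted p = 0.0349), and the call was lost without any one of siCYLD replicate 1 (0.38, adjusted p = 0.091), siCYLD replicate 2 (0.37, adjusted p = 0.0824), siCtrl replicate 1 (0.32, adjusted p = 0.0896) or the siCYLD inhibitor array (0.30, adjusted p = 0.224). ENO2, the enolase best known from neurons, read 851 in siCYLD cells with inhibitor and 1032 and 1085 in untreated siCYLD cells, against 483 in siCtrl cells with inhibitor and 1027 and 909 in untreated siCtrl cells. The siCtrl inhibitor array was the lowest of the 6. ENO2 fell by 0.64 ± 0.15 across both siRNAs (adjusted p = 0.0142), by 0.98 in siCtrl cells (adjusted p = 0.00171), and had a value of -0.31 in siCYLD cells (adjusted p = 0.165). The difference between those values was 0.67 (adjusted p = 0.17), so ENO2 was not shown to respond unequally. Its call was lost without siCtrl replicate 1 (-0.56, adjusted p = 0.0505) or without the siCtrl inhibitor array, which leaves the value in siCYLD cells.

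GAPDH, often used as a loading control, did not pass in any comparison. It read 12645 in siCYLD cells with inhibitor and 12821 and 12115 in untreated siCYLD cells, against 15006 in siCtrl cells with inhibitor and 11913 and 15868 in untreated siCtrl cells. Its knockdown difference was -0.14 (95% interval -0.39 to 0.11; adjusted p = 0.419) and its inhibitor difference 0.07 (-0.17 to 0.31; adjusted p = 0.68). The 2 siCtrl duplicates of GAPDH lay farther apart than the siCYLD duplicates. PKM, pyruvate kinase, had a knockdown difference of 0.34 (adjusted p = 0.0987), and PGK1 and ENO1 had 0.07 and -0.08. Their inhibitor differences were 0.13, 0.20 and 0.25, with none called.

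At the fates of pyruvate, LDHB and PDK1 fell with the CYLD siRNA and LDHA rose with the inhibitor. LDHB, the lactate dehydrogenase subunit that favours pyruvate formation, read 7429 in siCYLD cells with inhibitor and 5764 and 5149 in untreated siCYLD cells, against 6932 in siCtrl cells with inhibitor and 6542 and 8036 in untreated siCtrl cells. The untreated groups did not overlap. LDHB fell by 0.41 ± 0.11 (adjusted p = 0.0168), a second probe set fell by 0.48 (adjusted p = 0.0348), and the arrays of undisputed labels differed by -0.34. The call held in 9 of 15 other settings with arrays grouped by title, with values from -0.56 to -0.12. It was lost without the intensity trend (limma adjusted p = 0.159) and with no filter (adjusted p = 0.0717). It was also lost without siCYLD replicate 2 (-0.33) or siCtrl replicate 2 (-0.26). PDK1, a kinase that shuts down pyruvate dehydrogenase, read 1331 in siCYLD cells with inhibitor and 1055 and 1094 in untreated siCYLD cells, against 1801 in siCtrl cells with inhibitor and 1455 and 1577 in untreated siCtrl cells. Each siCYLD array lay below each siCtrl array. PDK1 fell by 0.49 ± 0.11 (adjusted p = 0.00769), with -0.41 for the arrays of undisputed labels and -0.43 for the inhibitor pair. The call held with any one untreated array left out, and in 13 of 16 other settings with arrays grouped by title. It was lost without the intensity trend (limma adjusted p = 0.0653) and with the mean of its kept probe sets (-0.37, adjusted p = 0.193). Its 2 other passing probe sets were uncalled, with -0.47 (adjusted p = 0.293) and -0.17 (adjusted p = 0.841).

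LDHA, the subunit that favours lactate formation and a known HIF1A target, read 5581 in siCYLD cells with inhibitor and 3997 and 3608 in untreated siCYLD cells, against 4998 in siCtrl cells with inhibitor and 3465 and 4403 in untreated siCtrl cells. Both inhibitor arrays lay above the untreated ones. LDHA rose by 0.45 ± 0.11 (adjusted p = 0.0191), and its knockdown difference was -0.04 (adjusted p = 0.844). The inhibitor call was lost without siCYLD replicate 2 (0.41, adjusted p = 0.0565), siCtrl replicate 1 (0.39, adjusted p = 0.0596) or the siCYLD inhibitor array (0.35, adjusted p = 0.15). PDK3, another kinase of pyruvate dehydrogenase, was uncalled. It read 1097 in siCYLD cells with inhibitor and 1046 and 921 in untreated siCYLD cells, against 903 in siCtrl cells with inhibitor and 802 and 873 in untreated siCtrl cells. Its knockdown difference was 0.23 (95% interval -0.05 to 0.50) and its inhibitor difference 0.13 (-0.12 to 0.39).

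Over the 17 enzymes from hexokinase to lactate dehydrogenase, 0 rose and 2 fell with the CYLD siRNA, with a median of -0.02, beside 9.49% of all genes higher and 11.8% lower. At an unadjusted p below 0.05 there were 4 of the 17, beside 34.2% of all genes. With the inhibitor 4 rose and 1 fell, beside 11.2% of all genes higher and 8.82% lower, and 14 of the 17 values were positive with a median of 0.20, beside 0.01 over all genes. The inhibitor difference is limited by the spread within the siCtrl duplicates. Replicate 2 of untreated siCtrl cells was higher than replicate 1 for 14 of the 17 enzymes, with a median log2 difference of 0.34 and a range of -0.23 to 1.17, whereas in siCYLD duplicates 9 of 17 were higher and the median was 0.01. Over all genes tested the median was -0.01 in both pairs. The array control for the middle of GAPDH, a separate probe set, read 12517 on siCtrl replicate 2 and 8821 on siCtrl replicate 1. The siCtrl replicate that stood higher is one of the arrays with conflicting labels, and the part of that array in the inhibitor result was not tested beyond leaving it out. Without siCtrl replicate 2 the inhibitor call also took in PGK1 (0.35, adjusted p = 0.0474) and ENO1 (0.34, adjusted p = 0.0426), and the knockdown call took in HK1 (0.45, adjusted p = 0.0126), PGK1 (0.37, adjusted p = 0.0346) and PKM (0.51, adjusted p = 0.0228) as higher. Without siCtrl replicate 1 it took in GPI (-0.36, adjusted p = 0.0335), GAPDH (-0.35, adjusted p = 0.0167) and PGAM1 (-0.49, adjusted p = 0.00245) as lower, so which enzymes were called, and in which direction, depended on the siCtrl array used. Without siCtrl replicate 1, HK1 was also called lower with the inhibitor (-0.38, adjusted p = 0.0447), and the interaction call took in TPI1 (0.80, adjusted p = 0.0233) and LDHB (0.66, adjusted p = 0.0482). Without siCYLD replicate 2 PKM was called higher with the CYLD siRNA (0.47, adjusted p = 0.0314), and in siCYLD cells alone LDHB was called higher with the inhibitor (0.45, adjusted p = 0.0293).

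**Figure D4:**
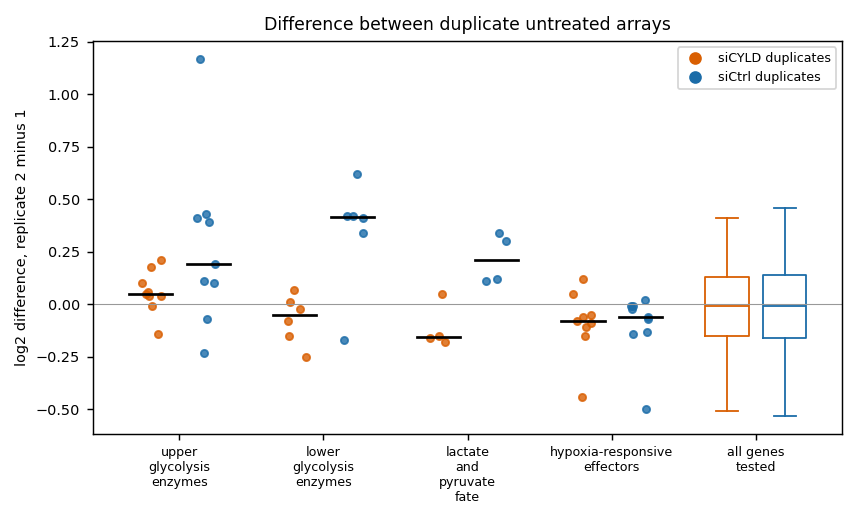
Difference between the 2 untreated arrays of each siRNA (log2, replicate 2 minus replicate 1) for genes by role, with siCYLD in orange, siCtrl in blue and a bar at each median; the boxes at the right show the median, quartiles and 5th to 95th percentiles of all genes tested. The median of the lower glycolysis enzymes is -0.05 in siCYLD and 0.42 in siCtrl duplicates.

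Among the 9 hypoxia-responsive effectors measured, ADM and BNIP3L fell with the CYLD siRNA, and with the inhibitor ADM, MXI1 and ERO1A rose while BNIP3L fell. Over all genes 11.8% fell with the siRNA, and 11.2% rose and 8.82% fell with the inhibitor. ADM, which encodes the secreted vasodilator adrenomedullin, read 2625 in siCYLD cells with inhibitor and 952 and 984 in untreated siCYLD cells, against 3748 in siCtrl cells with inhibitor and 2022 and 1988 in untreated siCtrl cells. Duplicates lay close together and no groups overlapped. ADM fell with the CYLD siRNA by 1.04 ± 0.11 (adjusted p = 1.39e-05), with -1.03 for the arrays of undisputed labels and -0.51 for the inhibitor pair. It rose with the inhibitor by 1.16 ± 0.13 (adjusted p = 0.000249), by 1.43 in siCYLD cells (adjusted p = 8.88e-06) and 0.90 in siCtrl cells (adjusted p = 0.000958), and those values differed by 0.53 (adjusted p = 0.197). The knockdown call held in 16 of 16 other settings with arrays grouped by title and the inhibitor call in 14 of 14. Adrenomedullin and PFKFB4 are both known hypoxia targets and went in opposite directions under both comparisons.

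MXI1, a MYC antagonist, read 6365 in siCYLD cells with inhibitor and 3407 and 3285 in untreated siCYLD cells, against 5500 in siCtrl cells with inhibitor and 4130 and 3970 in untreated siCtrl cells. Both inhibitor arrays lay above all untreated ones. MXI1 rose by 0.68 ± 0.11 (adjusted p = 0.00263), by 0.92 in siCYLD cells (adjusted p = 9.85e-05) and by 0.44 in siCtrl cells (adjusted p = 0.0299), a call held in 14 of 14 other settings. Its knockdown difference of -0.27 had an adjusted p of 0.0519. ERO1A, which helps disulphide bonds to form in the endoplasmic reticulum, read 8437 in siCYLD cells with inhibitor and 5614 and 5390 in untreated siCYLD cells, against 5769 in siCtrl cells with inhibitor and 5506 and 4991 in untreated siCtrl cells. The siCYLD inhibitor array stood apart from the others. ERO1A rose by 0.38 ± 0.11 (adjusted p = 0.0394), yet the call held in 5 of 14 other settings and the value in siCtrl cells alone was 0.14 (adjusted p = 0.505). It was lost without siCYLD replicate 1 (0.36, adjusted p = 0.111), siCYLD replicate 2 (0.33, adjusted p = 0.103) or siCtrl replicate 2 (0.38, adjusted p = 0.0788). Its representative probe set had a knockdown difference of 0.07, while the other 2 had 0.68 (adjusted p = 0.000748) and 0.38 (adjusted p = 0.0357).

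BNIP3L, a receptor for the removal of mitochondria, read 1851 in siCYLD cells with inhibitor and 2293 and 2150 in untreated siCYLD cells, against 1494 in siCtrl cells with inhibitor and 2739 and 2779 in untreated siCtrl cells. Both inhibitor arrays lay below every untreated array. BNIP3L fell with the inhibitor by 0.57 ± 0.13 (adjusted p = 0.0139), by 0.88 in siCtrl cells (adjusted p = 0.000883), and had a value of -0.26 in siCYLD cells (adjusted p = 0.159). The call across both siRNAs was lost without the siCtrl inhibitor array, without siCtrl replicate 1 (-0.53, adjusted p = 0.0529) and without both arrays of conflicting labels (-0.54, adjusted p = 0.0666). Its knockdown difference of -0.31 ± 0.10 had an adjusted p of 0.0485, and each untreated array left out in turn ended that call, with values of -0.36, -0.26, -0.32 and -0.30. Its relative BNIP3 was uncalled, with 0.14 for the knockdown and 0.17 for the inhibitor.

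DDIT4, an inhibitor of mTOR signalling that hypoxia and starvation induce, was uncalled in each comparison. It read 14347 in siCYLD cells with inhibitor and 14899 and 16137 in untreated siCYLD cells, against 18301 in siCtrl cells with inhibitor and 17480 and 17333 in untreated siCtrl cells. Each siCYLD array lay below each siCtrl array, with a knockdown difference of -0.17 (95% interval -0.34 to 0.01; adjusted p = 0.164). CA12, a carbonic anhydrase, had 0.54 for the knockdown and -0.44 for the inhibitor, and its 2 other passing probe sets with the largest knockdown differences had 1.48 and -0.74. ANKRD37 and KDM3A, a histone demethylase, had knockdown differences of -0.34 and -0.15 and inhibitor differences of 0.07 and -0.28.

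No oxygen sensing gene was called by limma in any of the 3 comparisons. With the unadjusted p below 0.05 the counts were 0 for the knockdown, 0 for the inhibitor and 2 for the interaction. The shares of all genes were 34.2%, 34.1% and 13.7%. The 2 interactions had opposite signs, 0.39 for HIF1A and -0.39 for EGLN1. HIF1A itself read 14032 in siCYLD cells with inhibitor and 13713 and 13461 in untreated siCYLD cells, against 10501 in siCtrl cells with inhibitor and 13656 and 12982 in untreated siCtrl cells. The siCtrl inhibitor array was the lowest, and the other 5 lay close together. Its knockdown difference was 0.03 (95% interval -0.15 to 0.20, adjusted p = 0.836) and its inhibitor difference -0.15 (-0.36 to 0.06, adjusted p = 0.309). In siCtrl cells alone the HIF1A inhibitor value was -0.34, from 1 inhibitor array. HIF1A is known to be controlled mainly through the stability of its protein, which the arrays do not measure. EGLN1, the main oxygen-sensing hydroxylase, had a knockdown difference of -0.09 and an inhibitor difference of -0.21. In siCYLD cells alone its inhibitor value was -0.41, again from 1 inhibitor array. EGLN3 lay near the filter, with 103 in siCYLD cells with inhibitor and 37.6 and 40.8 in untreated siCYLD cells, against 65.2 in siCtrl cells with inhibitor and 76.6 and 55.9 in untreated siCtrl cells, and it passed only through its siCYLD inhibitor array. Its differences of -0.56 and 0.55 were uncalled.

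**Figure D5:**
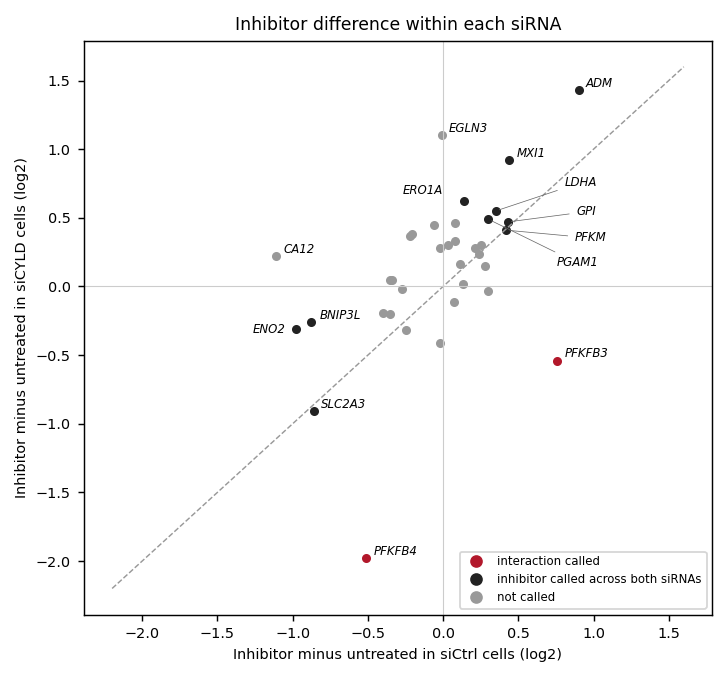
Inhibitor minus untreated difference (log2) in siCYLD cells against that in siCtrl cells for the 36 measured genes, with the dashed line at equality. PFKFB3 and PFKFB4 lie farthest below the line, with differences of -1.30 and -1.47 from it, and ADM lies highest.

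At an unadjusted p below 0.05, 14 of the 36 genes had an interaction, 38.9% against 13.7% of all genes. Of the 14, 11 were positive and 3 negative, where 7.49% of all genes were positive and 6.17% negative at that p. The median interaction was 0.21 beside 0.02. The 34 uncalled interactions ran from -0.39 for EGLN1 to 1.33 for CA12. All of these values use the same 2 inhibitor arrays and the same untreated arrays as the knockdown and inhibitor values, so they are not independent of them.

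Other genes of the same pathways moved in both directions. Of 22 other known HIF target genes, 6 rose and 3 fell with the CYLD siRNA, and 4 rose and 4 fell with the inhibitor. Over all genes 9.49% were higher and 11.8% lower with the siRNA, and 11.2% higher and 8.82% lower with the inhibitor. ANGPTL4, an inhibitor of lipoprotein lipase, read 46.8 in siCYLD cells with inhibitor and 189 and 184 in untreated siCYLD cells, against 11.6 in siCtrl cells with inhibitor and 17.7 and 35.9 in untreated siCtrl cells. Every siCYLD array lay above every siCtrl array, but ANGPTL4 passed the filter, a signal of 79.3, through its untreated siCYLD arrays alone. Its difference was called (adjusted p = 0.00186), and since the siCtrl signals lie near the offset its size depends on it, with 2.27 at the offset used and 1.63 at an offset of 50. NDRG1, a stress-induced differentiation gene, read 5431 in siCYLD cells with inhibitor and 13723 and 13641 in untreated siCYLD cells, against 4190 in siCtrl cells with inhibitor and 4654 and 6289 in untreated siCtrl cells. It was higher with the CYLD siRNA by 1.34 ± 0.12 (adjusted p = 5.35e-06), and its interaction was -0.96 ± 0.21 (adjusted p = 0.037). Across both siRNAs NDRG1 was lower with the inhibitor by 0.85 ± 0.18 (limma adjusted p = 0.00991), with -1.33 in siCYLD cells and -0.37 in siCtrl cells. P4HA2, a collagen prolyl hydroxylase, read 1778 in siCYLD cells with inhibitor and 2043 and 1914 in untreated siCYLD cells, against 774 in siCtrl cells with inhibitor and 878 and 1056 in untreated siCtrl cells. It was higher with the CYLD siRNA by 1.03 ± 0.12 (adjusted p = 6.3e-05), and this difference was 1.18 in the inhibitor pair. Between the arrays of undisputed labels the knockdown differences were 1.55 for NDRG1 and 1.11 for P4HA2. An additive fit without both arrays of conflicting labels, which averages the untreated and the inhibitor pair, ended the ANGPTL4 call.

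With the inhibitor, LOX, a collagen crosslinking enzyme, read 384 in siCYLD cells with inhibitor and 137 and 118 in untreated siCYLD cells, against 371 in siCtrl cells with inhibitor and 143 and 155 in untreated siCtrl cells. It rose by 1.36 ± 0.18 (adjusted p = 0.000779). GBE1, the glycogen branching enzyme, read 1116 in siCYLD cells with inhibitor and 3270 and 3214 in untreated siCYLD cells, against 1161 in siCtrl cells with inhibitor and 3461 and 3317 in untreated siCtrl cells. It fell by 1.53 ± 0.09 (adjusted p = 9.16e-06), by 1.53 in each siRNA. IGFBP3, which binds insulin-like growth factors, read 5864 in siCYLD cells with inhibitor and 10477 and 11521 in untreated siCYLD cells, against 8554 in siCtrl cells with inhibitor and 6305 and 6956 in untreated siCtrl cells, and its interaction was -1.27 ± 0.16 (adjusted p = 0.00176). Like PFKFB3 it was higher with the CYLD siRNA in untreated cells (0.73, adjusted p = 9.89e-05) and lower in the inhibitor pair (-0.54). Without the arrays of conflicting labels the values were 1.43 for LOX, -1.54 for GBE1 and -1.41 for the IGFBP3 interaction.

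Over all genes tested 9.49% rose and 11.8% fell with the CYLD siRNA, and 11.2% rose and 8.82% fell with the inhibitor. Of 15 HIF regulators, 0 rose and 1 fell with the CYLD siRNA, and 1 rose and 3 fell with the inhibitor. The one that fell with the siRNA was CITED2, which competes with HIF1A for the coactivators p300 and CBP. It read 3072 in siCYLD cells with inhibitor and 2679 and 2829 in untreated siCYLD cells, against 7353 in siCtrl cells with inhibitor and 8235 and 7603 in untreated siCtrl cells, and fell by 1.52 ± 0.09 (adjusted p = 3.21e-07). The inhibitor difference of CITED2 was 0.03 (adjusted p = 0.88). Of 15 other glycolysis isoforms and side enzymes, 2 rose and 1 fell with the CYLD siRNA and 3 rose with the inhibitor. These counts stand beside the same shares of all genes. SLC2A6, a glucose transporter-like protein, read 1717 in siCYLD cells with inhibitor and 909 and 1119 in untreated siCYLD cells, against 511 in siCtrl cells with inhibitor and 410 and 261 in untreated siCtrl cells, a knockdown difference of 1.57 ± 0.19 (adjusted p = 5.17e-05). SLC2A6 was also called higher with the inhibitor (0.69 ± 0.17, limma adjusted p = 0.0181), a call that held in 10 of 14 other settings. The arrays of undisputed labels differed by -1.54 for CITED2 and 1.41 for SLC2A6.

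Control measures of the arrays differed with the siRNA. The ratio of the 3′ to the 5′ ACTB control probe set was 2.38 in siCYLD cells with inhibitor and 2.26 and 2.48 in untreated siCYLD cells, against 3.67 in siCtrl cells with inhibitor and 3.41 and 3.21 in untreated siCtrl cells, and its part in the knockdown results was not tested. The geometric mean of the poly-A spike signals, added RNAs that should not differ, was 1870 in siCYLD cells with inhibitor and 2044 and 1750 in untreated siCYLD cells, against 1483 in siCtrl cells with inhibitor and 1536 and 1522 in untreated siCtrl cells. The same ratio for GAPDH overlapped between the siRNAs, from 1.80 to 1.97 on siCYLD arrays and 1.79 to 2.14 on siCtrl arrays. With the inhibitor the summed signal of 6 endothelial markers, 3 of which passed the filter, came to 868 in siCYLD cells and 984 in siCtrl cells, against 366 and 305 in untreated siCYLD cells and 316 and 388 in untreated siCtrl cells. Most of that difference lay in CDH5, a cadherin, which read 462 in siCYLD and 587 in siCtrl cells with the inhibitor and between 5.83 and 63.0 without it, while PECAM1 read 213 in siCYLD and 191 in siCtrl cells with the inhibitor and between 188 and 216 without it. VWF, the carrier of a clotting factor, read 169 in siCYLD and 169 in siCtrl cells with the inhibitor and between 25 and 71.4 without it, where it lay below the filter, and it was called higher with the inhibitor (adjusted p = 0.0165). The part of these markers in the inhibitor results was not tested. In RNA of a whole culture, fewer cells of a kind and less RNA per cell cannot be told apart.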

How the data were processed

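RNA of SAS cells, labelled from 2 µg of total RNA per sample, was measured on 6 Affymetrix arrays. The deposited values were 1 intensity (signal) per probe set on a linear scale, which came from MAS5 according to the notes on processing (per the submitters' processing notes); its version is not given in the sources used here. Each deposited column had a mean of 500.1 after 2% was trimmed at each end. Arrays carry no read depth, and their number limits the precision.

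The platform annotation gave 1 symbol for 41091 of 54675 probe sets, several for 1801 and none for 11721, besides 62 controls. The Entrez identifiers of 41037 were in RefSeq and changed 0 symbols. The log2 scale had an offset of 16.06, the 20th percentile over all arrays, so differences of dim genes are understated. Probe sets whose highest group mean did not exceed a signal of 79.3, the overall median, were left out, and 24537 stayed. The fits used limma 3.58.1 (R 4.3.3) with an intensity trend, and p-values were adjusted by Benjamini-Hochberg over 12935 genes. Knockdown and interaction came from 4 group means (2 residual and 10.9 prior degrees of freedom), the inhibitor across both siRNAs from an additive model (3 and 7.98). Values quoted for further probe sets of a gene were adjusted over all 24537. Inhibitor values within 1 siRNA came from the additive model without the other inhibitor array. Simulated data were used to test the scripts. Data were handled with data.table (version 1.17.8), and figures drawn with matplotlib 3.10.9 in Python 3.11.15.

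The members and the other gene lists were chosen with earlier results of these data known. Arrays, values and tests are given in full for each gene called in any comparison and for the uncalled gene of highest mean signal in each role, and for genes of the other pathway lists when called with a log2 difference of at least 1 in size. Marker lists of cell types are given by their sums and by the genes called. Alternatives changed the offset, filter, scaling, trend, choice of probe set, grouping and arrays.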

Additional observations from a re-analysis of the deposited data

Results flagged for a closer look

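In 2 genes the inhibitor difference itself differed between the siRNAs by the interaction test of limma. For PFKFB4 the difference in siCYLD cells minus that in siCtrl cells was -1.47 on the log2 scale (SE 0.29, adjusted p = 0.0218), from -1.98 in siCYLD cells and -0.51 in siCtrl cells. For PFKFB3 it was -1.30 (SE 0.26, adjusted p = 0.0217), from -0.54 in siCYLD cells and 0.76 in siCtrl cells. Neither passed without the intensity trend (adjusted p = 0.244 for PFKFB4 and 0.228 for PFKFB3) or with no filter (0.179 and 0.156). Each siRNA had 1 inhibitor array, and no group held the 4 arrays that a check for an outlying array needs.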

How the results depend on the processing

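With the source names as groups, 0 genes were called with the CYLD siRNA (80 at an unadjusted p below 0.05) and 0 of the 36 described here, and CYLD (0.01), ADM (0.01), HK2 (0.07), LDHB (0.07), PDK1 (0.08), PHGDH (0.22), MLXIPL (-0.30) and SLC2A6 (-0.16) had the opposite sign. That grouping puts 1 array titled siCYLD and 1 titled siCtrl in each group, although untreated arrays of the same title correlated most closely. The next fit is additive, so its siRNA difference averages the untreated and the inhibitor pair. Without both arrays of conflicting labels, 1052 genes and 1 of the 36 were called with the CYLD siRNA, and 1325 genes with the inhibitor. In place of 2757, 2586 and 216 genes for knockdown, inhibitor and interaction, a fit without the intensity trend called 1219, 1087 and 0 (1480 at an unadjusted p below 0.05), and 2, 3 and 0 of the 36. For the interaction, no filter called 33 genes and 0 of the 36, and the mean of the kept probe sets 95 and 1. Leaving out probe sets shared by transcripts called 134 genes and 1 member for the interaction, and 5 members with the inhibitor. That setting tested only 10221 genes and 22 of the 36. PFKFB3, whose 1 probe set is of the kind left out, was not among them. With the mean of its kept probe sets HK2 was 0.46 with the CYLD siRNA. Replicate 1 deviations of the siRNAs correlated at 0.0447, and the main fits did not pair arrays by number. Whether the numbers mark a shared culture or run was not tested. With the replicate block 3688 genes and 11 of the 36 were called with the CYLD siRNA, and 723 genes and 5 of the 36 for the interaction. Leaving out each array gave 2151 to 2796 genes and 5 to 9 of the 36 for the knockdown, 1232 to 2888 and 7 to 12 for the inhibitor, and 294 to 455 and 2 to 4 for the interaction, which cannot be had without either inhibitor array. The cause of these changes was not tested. Over the called genes among the 36, 83 of 117 alternative knockdown values kept the call, 113 of 149 inhibitor values and 16 of 21 interaction values. Signals near 79.3 limit CA12, ALDOC and EGLN3.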

Other observations

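Genes that carry carbon away from glycolysis were also measured. Of 25 genes of pyruvate oxidation and the citrate cycle, 1 rose and 7 fell with the CYLD siRNA, with a median log2 difference of -0.20 beside -0.04 over all genes, and 11.8% of all genes fell. With the inhibitor 2 rose and 0 fell, beside 11.2% and 8.82% of all genes. For the inhibitor difference 6 of the 25 had an unadjusted p below 0.05 in limma, beside 34.1% of all genes. PC, pyruvate carboxylase, which feeds the citrate cycle, read 185 in siCYLD cells with inhibitor and 85.9 and 59.3 in untreated siCYLD cells, against 177 in siCtrl cells with inhibitor and 185 and 209 in untreated siCtrl cells. It fell by 1.28 ± 0.26 (adjusted p = 0.0032), and the difference was 0.06 in the inhibitor pair.

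Of 4 genes of the serine branch, 2 fell with the CYLD siRNA and 2 rose with the inhibitor, beside 11.8% of all genes lower with the siRNA and 11.2% higher with the inhibitor. PHGDH, which draws 3-phosphoglycerate into serine synthesis, read 3927 in siCYLD cells with inhibitor and 2634 and 2721 in untreated siCYLD cells, against 9086 in siCtrl cells with inhibitor and 5243 and 6844 in untreated siCtrl cells. It fell with the CYLD siRNA by 1.16 ± 0.12 (adjusted p = 1.52e-05) and rose with the inhibitor by 0.57 ± 0.11 (adjusted p = 0.00569). Of 6 pentose phosphate genes 2 fell with the CYLD siRNA and 2 rose with the inhibitor, beside 11.8% and 11.2% of all genes. Of 9 glucose-responsive and MYC factors 2 rose with the siRNA and 2 with the inhibitor, beside 9.49% and 11.2% of all genes. MLXIPL, a glucose-responsive factor, read 185 in siCYLD cells with inhibitor and 197 and 203 in untreated siCYLD cells, against 142 in siCtrl cells with inhibitor and 94.1 and 55.2 in untreated siCtrl cells (knockdown difference 1.28 ± 0.27, adjusted p = 0.00469). Between the arrays of undisputed labels the knockdown differences were -1.42 for PC, -0.94 for PHGDH and 0.99 for MLXIPL. An additive fit without both arrays of conflicting labels ended the calls of PC (-0.68) and MLXIPL (0.67). That fit averages the untreated and the inhibitor pair.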
